A study of Mus musculus with 6 samples.

Results

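Immunoglobulin light chain variable (V) segments were read in RNA from mouse retinal cells sorted as retinal ganglion cells (RGCs), which send the axons of the optic nerve to the brain. The members were the gene symbols that begin with Igkv or Iglv followed by a digit and that held at least 5 counts summed over the 6 libraries. That rule took 67 of the 163 light chain V genes in a table of 55573 genes: 64 of the kappa locus on chromosome 6 and 3 of the lambda locus on chromosome 16. A further 14 light chain V genes held counts below that minimum, and 82 held none. At the edge of the rule, 7 members stood at exactly 5 counts (Igkv10-95, Igkv4-50, Igkv4-68, Igkv4-72, Igkv4-90, Igkv5-45 and Igkv6-17), and Igkv4-70 and Igkv9-123 stood just outside it at 3 counts. The rule used summed counts and not the difference between groups, but library dKO 3 gave the most light V counts and so weighed most in it.

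The study compared 3 libraries labelled Myh9/10 dKO with 3 labelled wild type (WT). All 6 came from C57BL/6 mice of the genotype Myh9/10 double-floxed, so the WT animals carried the floxed alleles too. The dKO eyes received AAV2-Cre and the WT eyes AAV2-GFP by intravitreal injection, 2 weeks before the tissue was taken. Each library pooled 3 retinas from 3 mice, and the RNA was taken from the cells after fluorescence-activated sorting. Myh9 and Myh10 encode heavy chains of non-muscle myosin II. Neither the age of the mice nor the promoter that drove Cre is given in the sources used here. Nothing states whether libraries of the same group shared a litter or an injection day, so a p-value given here speaks only of the variation among these 6 libraries. An edgeR p-value or SE also draws on the spread of other genes and can be too small for a segment that varies more.

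An antibody light chain is assembled in a developing B cell, when recombination joins a V segment to a joining (J) segment upstream of the constant region. A mature B cell and its descendants normally keep a single productive light chain, so V segments differ between clones. Plasma cells, the antibody-secreting descendants of B cells, transcribe the joined gene at very high level, and most mouse light chains are kappa. The V segment encodes the greater part of the domain that contacts antigen, and segments of similar sequence are grouped in numbered families.

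Many of the 67 segments are close copies of each other, which bears on every single-segment value given here. In the GENCODE M21 annotation of GRCm38 all 67 are listed as functional V genes (IG_V_gene), with coding parts of 343 to 370 bases. Each was aligned to every other, and the closest other member was between 57.0% and 98.6% identical, with a median of 93.9%. The closest member was at least 90% identical for 50 of the 67. How reads that match several genes were treated, and whether counting used the strand of the stranded library kit, is not given in the sources used here, so counts of close copies are uncertain.

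The following 4 pairs show how far the counted sequences can be told apart. Each holds a segment called different between the groups beside a relative that was not called or was called the other way. A segment that was not called may still differ. Each line gives the 300 coding bases, 5′ to 3′ on the gene's own strand, that hold the most differences, and capitals mark the bases that differ from the other segment of the pair. They start at coding base 39 for the Igkv6 pair, 49 for the Igkv14 pair and 1 for the other pairs.
Igkv6-15: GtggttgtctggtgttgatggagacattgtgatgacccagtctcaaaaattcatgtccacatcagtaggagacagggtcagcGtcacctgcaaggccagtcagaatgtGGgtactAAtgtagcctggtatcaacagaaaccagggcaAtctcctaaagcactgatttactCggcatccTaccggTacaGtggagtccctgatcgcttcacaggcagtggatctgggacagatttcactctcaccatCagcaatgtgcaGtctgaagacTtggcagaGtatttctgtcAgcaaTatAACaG
Igkv6-14: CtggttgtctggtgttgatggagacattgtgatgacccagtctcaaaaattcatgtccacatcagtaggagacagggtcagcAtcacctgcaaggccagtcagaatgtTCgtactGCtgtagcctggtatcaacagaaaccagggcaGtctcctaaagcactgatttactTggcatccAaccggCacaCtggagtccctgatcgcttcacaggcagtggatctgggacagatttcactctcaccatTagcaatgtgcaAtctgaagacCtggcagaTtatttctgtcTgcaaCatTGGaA
Igkv14-126: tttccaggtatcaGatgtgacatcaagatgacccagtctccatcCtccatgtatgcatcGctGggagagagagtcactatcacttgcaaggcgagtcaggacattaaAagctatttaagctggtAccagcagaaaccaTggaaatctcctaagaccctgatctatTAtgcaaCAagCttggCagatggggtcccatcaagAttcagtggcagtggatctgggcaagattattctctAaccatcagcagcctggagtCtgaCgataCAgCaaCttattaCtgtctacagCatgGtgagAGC
Igkv14-111: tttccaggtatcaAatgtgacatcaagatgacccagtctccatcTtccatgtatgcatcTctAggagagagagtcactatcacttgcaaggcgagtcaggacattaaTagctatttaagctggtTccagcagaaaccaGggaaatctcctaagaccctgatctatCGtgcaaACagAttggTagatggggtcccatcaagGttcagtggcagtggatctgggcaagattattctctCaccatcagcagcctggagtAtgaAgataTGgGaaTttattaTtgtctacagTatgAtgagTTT
Igkv17-127: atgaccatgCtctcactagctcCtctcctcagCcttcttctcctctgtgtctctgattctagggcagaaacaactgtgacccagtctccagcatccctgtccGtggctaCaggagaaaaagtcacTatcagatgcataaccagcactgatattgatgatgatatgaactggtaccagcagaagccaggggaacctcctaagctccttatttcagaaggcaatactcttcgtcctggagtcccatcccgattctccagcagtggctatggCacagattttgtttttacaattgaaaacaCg
Igkv17-121: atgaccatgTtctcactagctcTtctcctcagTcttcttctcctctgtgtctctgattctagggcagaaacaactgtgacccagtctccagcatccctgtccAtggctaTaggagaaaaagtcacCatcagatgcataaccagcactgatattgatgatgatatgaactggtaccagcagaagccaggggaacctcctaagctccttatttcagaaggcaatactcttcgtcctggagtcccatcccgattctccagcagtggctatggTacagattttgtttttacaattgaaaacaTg
Igkv8-19: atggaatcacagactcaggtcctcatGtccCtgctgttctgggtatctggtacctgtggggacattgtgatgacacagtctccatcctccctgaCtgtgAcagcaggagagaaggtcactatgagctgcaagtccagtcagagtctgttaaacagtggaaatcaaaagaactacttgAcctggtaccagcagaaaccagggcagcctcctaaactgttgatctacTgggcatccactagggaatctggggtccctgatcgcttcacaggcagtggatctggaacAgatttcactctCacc
Igkv8-28: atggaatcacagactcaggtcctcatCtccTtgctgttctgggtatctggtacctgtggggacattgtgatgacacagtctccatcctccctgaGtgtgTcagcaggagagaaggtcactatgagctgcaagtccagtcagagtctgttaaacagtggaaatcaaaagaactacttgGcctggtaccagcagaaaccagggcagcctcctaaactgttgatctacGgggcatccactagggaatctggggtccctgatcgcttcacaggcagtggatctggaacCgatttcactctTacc
Igkv6-15 (chr6:70406469-70406992, minus strand) and Igkv6-14 (chr6:70434952-70435476, minus strand) differed at 27 of 347 bases, with a longest identical run of 81 bases, and 21 of the differences are printed. Igkv14-126 (chr6:67896172-67896642, plus strand) and Igkv14-111 (chr6:68256389-68256869, plus strand) differed at 30 of 353 bases, with a longest identical run of 44, and 27 of the differences are printed. Igkv17-127 (chr6:67861153-67861659, plus strand) and Igkv17-121 (chr6:68036812-68037318, plus strand) were closer, with 9 differences in 353 bases and an identical run of 143. Igkv8-19 (chr6:70340876-70341453, minus strand) and Igkv8-28 (chr6:70143593-70144166, minus strand) had 9 differences in 365 bases and an identical run of 77, and 8 of the 9 are printed for each of these close pairs.

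Some facts of the libraries touch every value below. A single ribosomal RNA gene took between 64.2% and 92.8% of the counts, which left 576060, 453327 and 1636581 counts outside it in dKO libraries 1 to 3 and 499313, 346037 and 441118 in WT libraries 1 to 3. Levels are therefore given as CPM, counts scaled to each library's size after correction by the trimmed mean of M values (TMM). Myh9 was at 63.7, 66.2 and 58.2 CPM in the dKO libraries and 63.6, 68.4 and 60.7 CPM in the WT libraries, and Myh10 was at 19.2, 20.6 and 14.2 against 19.9, 19.96 and 16.3 CPM. Neither targeted gene passed the test (log2 fold change -0.044 ± 0.098 and -0.15 ± 0.14, SE; edgeR adjusted p = 0.908 and 0.735), so these counts do not tell the labelled groups apart. The 14 RGC markers held 0.0360% ± 0.00135 of the counts outside the ribosomal RNA gene in dKO and 0.0277% ± 0.00268 in WT libraries (SD, n = 3 each), and Thy1 and Isl1 were the most abundant of them in WT. Of the 5 RGC markers tested 1 rose (Nefl, a neurofilament subunit, log2 fold change 1.63 ± 0.28, edgeR adjusted p = 3.96e-05), and Pou4f2, an RGC transcription factor, was at 0 in WT and at 0.271 ± 0.247 CPM in dKO libraries. The median log2 fold change of the tested RGC markers was 0.86, but Isl1 and Thy1 did not rise. Isl1 was at 4.24 CPM in dKO and 7.05 CPM in WT, without overlap (log2 fold change -0.65 ± 0.23, edgeR adjusted p = 0.138). Thy1 was level (-0.073 ± 0.17, edgeR adjusted p = 0.911). The 12 microglia and macrophage markers held 0.808% in dKO and 0.766% in WT, and the 8 Müller glia markers 2.83% in dKO and 2.61% in WT, so these lists took more counts than the RGC list did. Of the 8 rod markers 7 were called higher in dKO libraries, with 0.350% of counts against 0.168% in WT libraries, and the part of that difference in the light chain values was not tested.

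Light V segments were detected in every library. The 67 members held 647, 575 and 2084 counts in dKO libraries 1 to 3, and 893, 423 and 757 counts in WT libraries 1 to 3. As a share of the counts outside the ribosomal RNA gene this was 0.112%, 0.127% and 0.127% in dKO, against 0.179%, 0.122% and 0.172% in WT. The dKO mean of 0.122% ± 0.00853 was below the WT mean of 0.158% ± 0.0308 (SD, n = 3 each), but library WT 2 fell among the dKO values. The difference did not pass a two-sided exact permutation test over the 6 libraries (p = 0.3), a design in which p cannot go below 0.1. With all counts of the library as the denominator the sign turned, since dKO 3 had the smallest ribosomal share (difference 0.00980 percentage points, exact permutation p = 0.7). As a share of all immunoglobulin counts, light V segments made up 14.7% ± 0.289 in dKO and 14.4% ± 1.06 in WT (exact permutation p = 0.7). In bulk RNA, fewer antibody-producing cells and less light chain RNA per cell cannot be told apart.

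Of the constant regions, which many different joined light chains share, Igkc and Iglc1 fell in the dKO libraries. Igkc, the kappa constant region, was at 196, 202 and 186 CPM in dKO and 292, 233 and 321 CPM in WT libraries. Every dKO value lay below every WT value (log2 fold change -0.54 ± 0.10, SE; edgeR adjusted p = 2.75e-04), and the call held in each of the 12 alternatives. Iglc1, a lambda constant region, had 11, 17 and 17 counts in dKO and 41, 20 and 41 counts in WT libraries (log2 fold change -2.21 ± 0.28, edgeR adjusted p = 3.10e-08), a call that DESeq2 did not make (adjusted p = 0.0938). Iglc2 had 1, 5 and 31 counts in dKO and 7, 4 and 2 in WT libraries and Iglc3 had 3, 3 and 15 against 3, 1 and 2. Both were too low to be tested, and Iglc4 was at 0 throughout. Jchain, which links antibodies into polymers and is abundant in plasma cells, was at 46.3, 54.6 and 49.5 CPM in dKO and 58.1, 53.5 and 61.5 CPM in WT libraries (log2 fold change -0.21 ± 0.10, edgeR adjusted p = 0.342). Ighm, the mu heavy chain, had a log2 fold change of -0.047 (edgeR adjusted p = 0.913).

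The ratio of kappa V to its constant region did not pass a test. There were 0.611, 0.665 and 0.707 kappa V counts per Igkc count in dKO and 0.642, 0.545 and 0.582 in WT libraries, a ratio of raw counts that is not corrected for length (exact permutation p = 0.2). The 3 lambda members made up 3.55%, 3.83% and 3.41% of light V counts in dKO, against 4.03%, 5.20% and 3.30% in WT (means 3.60% ± 0.213 and 4.18% ± 0.958, SD; exact permutation p = 0.5). Kappa segments gave the rest, and so nearly all light V counts, in every library.

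A small number of segments carried most of the signal. The 3 most used, Igkv6-32, Igkv14-111 and Igkv10-96, held 46.1% of all 5379 light V counts, and the 10 most used held 64.7%. At the other end 41 of the 67 members had fewer than 50 counts over all 6 libraries. Counts were present in all 6 libraries for 26 members and in both groups for 49, while 11 were seen in dKO only and 7 in WT only. These numbers depend on depth, since library dKO 3 held 2084 light V counts and WT 2 held 423. The share of all genes seen in a single group was not taken, so they are no measure of a group difference. The map of each segment's share of light V counts sets out these differences library by library.

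**Figure D1:**
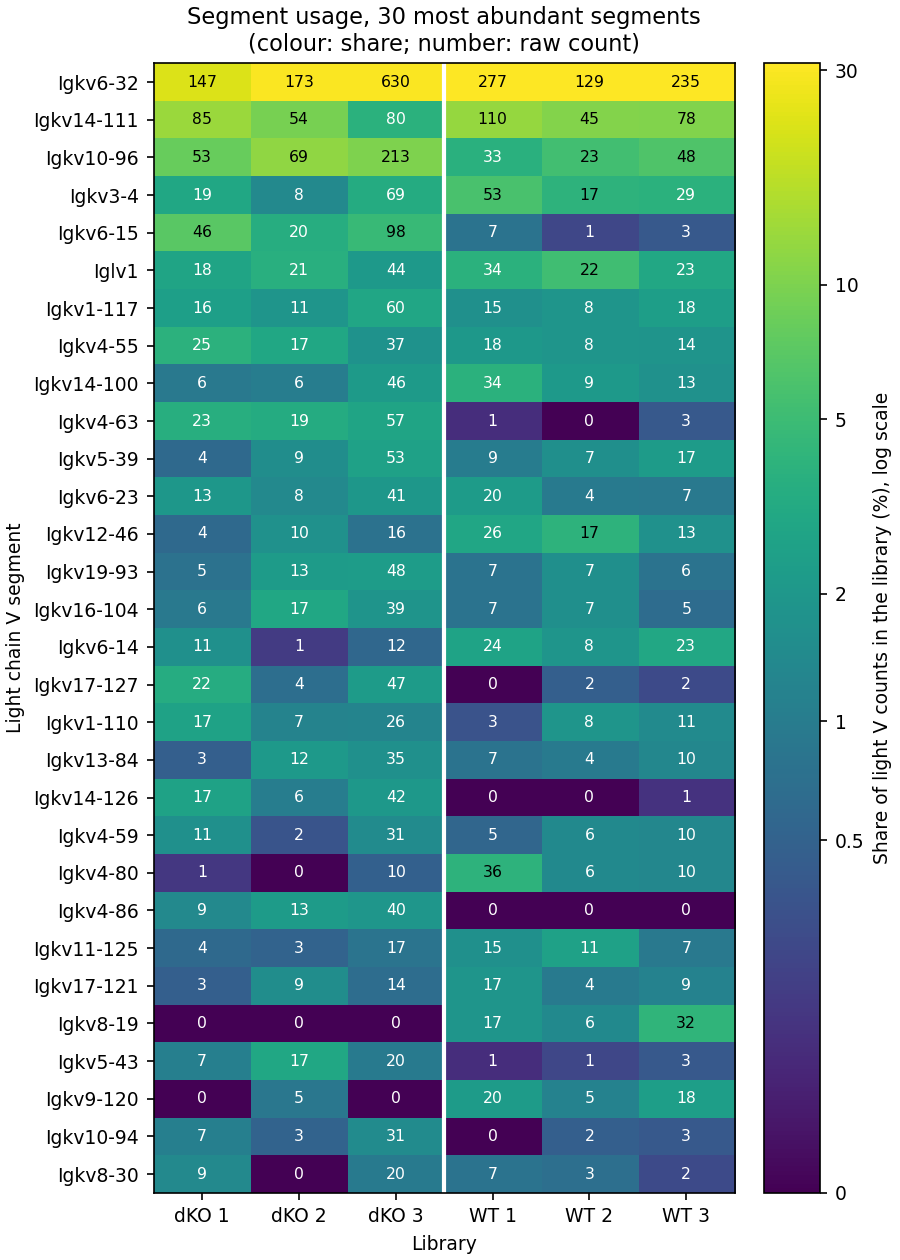
Share of light V counts taken by the 30 most abundant segments (segments down the page, libraries across, dKO left of WT). Colour gives the percent of that library's light V counts on a log scale and the number in each cell is the raw count. Igkv6-32 takes between 22.7% and 31.0% in every library, while Igkv8-19 has no count in dKO and Igkv4-86 none in WT.

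Igkv6-32 (chr6:70074024-70074603, minus strand) led every library. It took 22.7%, 30.1% and 30.2% of light V counts in dKO and 31.0%, 30.5% and 31.0% in WT libraries. The WT values all lay above the dKO values (exact permutation p = 0.1, the smallest possible), but only dKO 1 stood clearly lower. The shares of dKO 2 and dKO 3 were hardly below that of WT 2, which rests on 129 of 423 counts. Counting error was not taken into account in this comparison. Its level was 28.2, 42.0 and 41.1 CPM in dKO against 60.5, 40.9 and 59.9 CPM in WT, so WT 2 fell among the dKO libraries. The fall passed the test (log2 fold change -0.53 ± 0.11, SE; edgeR adjusted p = 0.00160) but not without library dKO 1 (adjusted p = 0.0529), without WT 1 (adjusted p = 0.0937) or in DESeq2 (adjusted p = 0.835).

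Across segments the groups differed in both directions. With edgeR's default filter on low counts, 14 of the 67 segments were tested, against 8444 genes in all. Of these 2 rose (Igkv6-15 and Igkv4-63), 7 fell (Igkv6-32, Igkv14-111, Igkv3-4, Iglv1, Igkv12-46, Igkv6-14 and Igkv11-125) and 5 did not pass (Igkv10-96, Igkv1-117, Igkv4-55, Igkv14-100 and Igkv6-23). Over all genes tested, 1.92% were called, 0.734% higher and 1.18% lower in dKO. Because 53 segments were too low for that filter, and Igkv6-15 and Igkv4-63 were over its minimum in the dKO libraries only, all 67 were also read in a fit with no filter. There 6 rose, 16 fell and 45 did not pass, or 32.8% called, against 0.825% of the 21821 genes in that fit (0.38% higher and 0.445% lower). The 16 falls became 6 in DESeq2, 3 in limma-voom and 10 without WT 1, and the 6 rises became 3 in limma-voom. The signs of all 67 were evenly split, with 33 positive and 34 negative fold changes and a median log2 fold change of -0.0071, beside 0.054 over all genes. Of the 14 segments tested with the filter 11 had negative fold changes, with a median of -0.76 beside -0.00072 over all genes tested, values that depend on which segments passed.

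**Figure D2:**
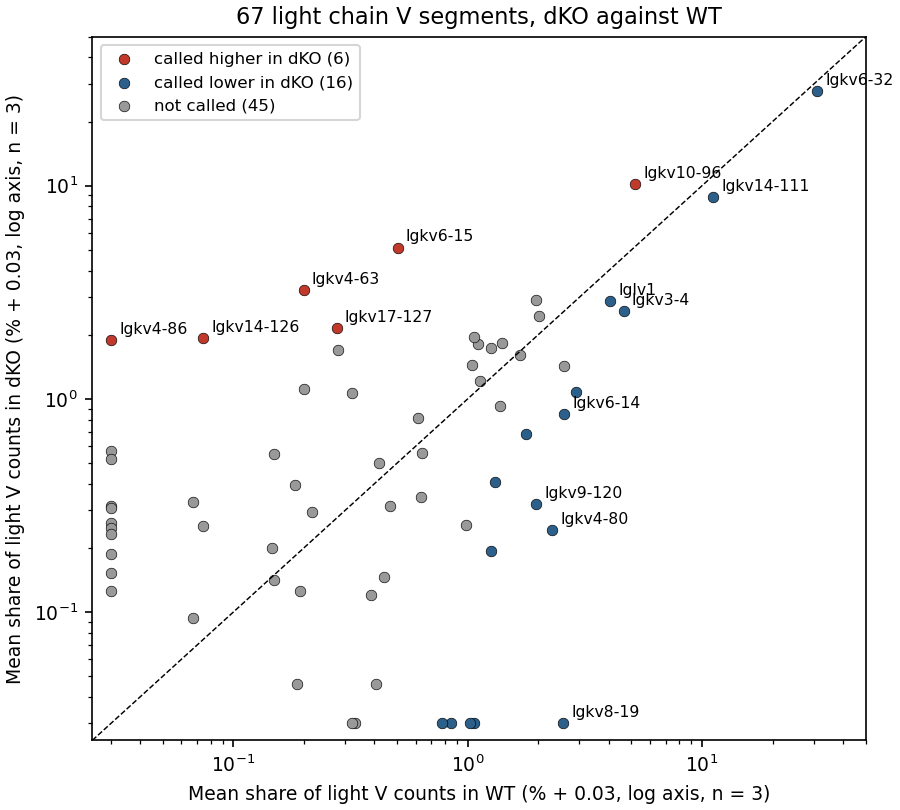
Mean share of light V counts per segment in dKO (vertical axis) against WT (horizontal axis), both in percent plus 0.03 on log axes, n = 3 each, with a point per segment. Colours mark the 6 segments called higher and the 16 called lower in dKO by edgeR with no low-count filter; limma-voom called 3 in each direction. The dashed line marks equal shares, and called segments lie on both sides of it.

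The tested segments that rose were Igkv6-15 and Igkv4-63. Both passed the filter on low counts through the dKO libraries alone, so being tested depended on their high dKO values. Igkv6-15 had 46, 20 and 98 counts in dKO and 7, 1 and 3 counts in WT libraries, or 8.83, 4.85 and 6.40 CPM against 1.53, 0.317 and 0.765 CPM. The lowest dKO library was above the highest WT library (log2 fold change 2.80 ± 0.36, edgeR adjusted p = 4.16e-08; with no filter 2.83 ± 0.35 and 1.66e-12). Igkv4-63 had 23, 19 and 57 counts in dKO and 1, 0 and 3 counts in WT libraries, close to the limit of detection in WT. It averaged 4.25 ± 0.467 CPM in dKO and 0.328 ± 0.394 CPM in WT (SD, n = 3 each; log2 fold change 3.49 ± 0.52, edgeR adjusted p = 1.94e-06; with no filter 3.52 ± 0.51 and 4.55e-09). Both kept their call in each alternative that was run.

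Igkv6-14, the relative of Igkv6-15 printed above, moved the other way. It had 11, 1 and 12 counts in dKO and 24, 8 and 23 counts in WT libraries, or 2.11, 0.243 and 0.784 CPM against 5.24, 2.53 and 5.87 CPM. Its groups did not overlap (log2 fold change -2.23 ± 0.39, edgeR adjusted p = 6.68e-05). Igkv12-46 had 4, 10 and 16 counts in dKO and 26, 17 and 13 counts in WT libraries, which on the CPM scale put all dKO libraries below all WT libraries (log2 fold change -1.95 ± 0.36, edgeR adjusted p = 1.41e-04). Igkv12-46 was over the filter's minimum in 3 WT libraries and 1 dKO library, so the WT libraries sufficed for it to be tested. The falls of Igkv6-14 and Igkv12-46 held in each alternative that was run.

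The other falls were smaller and less even. Igkv14-111, second by counts summed over all libraries, was at 16.3, 13.1 and 5.22 CPM in dKO and 24.0, 14.3 and 19.9 CPM in WT libraries, and its groups overlapped (log2 fold change -1.07 ± 0.20, edgeR adjusted p = 1.39e-04). The low value came from dKO 3, and without that library the call was lost (log2 fold change -0.42, adjusted p = 0.288), as it was in DESeq2 (adjusted p = 0.998). Igkv3-4 was at 3.65, 1.94 and 4.51 CPM in dKO, all below the 11.6, 5.39 and 7.40 CPM of WT (log2 fold change -1.14 ± 0.24, edgeR adjusted p = 0.00139). It lost its call without WT 1 (log2 fold change -0.77, adjusted p = 0.270) and in DESeq2 (adjusted p = 0.0690). Igkv3-4 was over the filter's minimum in 3 WT and 2 dKO libraries, so here too the WT libraries sufficed. Iglv1, the main lambda segment, was at 3.45, 5.10 and 2.87 CPM in dKO and 7.43, 6.97 and 5.87 CPM in WT (log2 fold change -0.98 ± 0.25, edgeR adjusted p = 0.0130), with no overlap. That call was lost without dKO 3 (adjusted p = 0.329), without WT 1 (adjusted p = 0.161) and in DESeq2 (adjusted p = 0.381). Igkv11-125 had 4, 3 and 17 counts in dKO and 15, 11 and 7 in WT, and its call (log2 fold change -1.54 ± 0.44, edgeR adjusted p = 0.0426) was lost in 7 of 11 alternatives, among them those without dKO 1, dKO 2, dKO 3, WT 1 or WT 2.

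Of the tested segments that did not pass, Igkv10-96 came nearest from above. It was at 10.2, 16.7 and 13.9 CPM in dKO and 7.21, 7.29 and 12.2 CPM in WT libraries, with WT 3 among the dKO values (log2 fold change 0.60 ± 0.18, edgeR adjusted p = 0.0553; 0.0344 with no low-count filter). Its share of light V counts was 8.19%, 12% and 10.2% in dKO and 3.70%, 5.44% and 6.34% in WT, without overlap. Igkv14-100 was at 1.15, 1.46 and 3.00 CPM in dKO and 7.43, 2.85 and 3.32 CPM in WT (log2 fold change -1.05 ± 0.32, edgeR adjusted p = 0.0690). Igkv10-96 passed without dKO 1 (adjusted p = 0.00952) or WT 3 (0.00385), and Igkv14-100 without dKO 3 (0.00324), WT 2 (0.0136) or WT 3 (0.0272). Igkv1-117, Igkv4-55 and Igkv6-23 had log2 fold changes of -0.014 ± 0.30, -0.056 ± 0.31 and -0.083 ± 0.36, each within its error of 0. The most used segments outside the filter were Igkv5-39, Igkv19-93 and Igkv16-104, with 99, 86 and 81 counts. None was called in the fit with no filter (log2 fold change -0.092, 0.64 and 0.65; edgeR adjusted p = 0.934, 0.747 and 0.749).

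Some segments were present in 1 group and absent from the other. Igkv8-19, the first of the last pair printed above, had no count in any dKO library and 17, 6 and 32 counts in WT libraries. Against a floor of 3 counts over the dKO group it was at least 38.8-fold lower in dKO (edgeR with no filter, adjusted p = 1.87e-20). Over the 11 edgeR, DESeq2 and limma-voom alternatives its adjusted p rose to at most 0.0335. Its near copy Igkv8-28 had 0, 2 and 0 counts in dKO and 2, 2 and 4 counts in WT libraries. Igkv8-28 leaned the same way but was not called (log2 fold change -2.73 ± 1.08, edgeR with no filter, adjusted p = 0.388). Igkv4-53 had 7, 7 and 5 counts and Igkv4-57 had 8, 6 and 5 counts in WT libraries, and neither had any in dKO (each at least 13.4-fold lower, edgeR adjusted p = 7.02e-06 with no filter). Over the same alternatives the adjusted p of Igkv4-53 rose to at most 0.0153 and that of Igkv4-57 to 0.0148. Igkv12-38 (3, 0 and 16 counts) and Igkv3-12 (13, 0 and 6 counts) were also seen in WT only, but each was missing from WT 2, and their calls (edgeR adjusted p = 7.15e-06 and 7.80e-06) were lost in DESeq2 and limma-voom. Igkv12-38 also lost its call without WT 3 (adjusted p = 0.614) and Igkv3-12 without WT 1 (adjusted p = 0.120).

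Igkv4-86 was the mirror case, with 9, 13 and 40 counts in dKO and none in WT libraries. Against the same floor over the WT group it was at least 9.77-fold higher in dKO (edgeR with no filter, adjusted p = 6.73e-08). Over the 11 edgeR, DESeq2 and limma-voom alternatives its adjusted p rose to at most 0.0117. Igkv6-13 had 5, 4 and 3 counts and Igkv4-51 had 3, 5 and 3 counts in dKO, with none in WT, and neither passed the test (adjusted p = 0.305 and 0.359). Igkv4-91 had 2, 0 and 8 counts in dKO and none in WT. Such low counts limit what can be said of their absence, since dKO 3 alone held more counts outside the ribosomal RNA gene than the 3 WT libraries together.

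Counts in all 3 libraries of a group and in none of the other were found for 7 members, or 10.4%: Igkv4-86, Igkv6-13, Igkv4-51 and Igkv10-95 in dKO, and Igkv8-19, Igkv4-53 and Igkv4-57 in WT. Among the 15883 genes with at least 5 counts that pattern was found for 0.711%, with 0.655% present in dKO and 0.0567% in WT. In the WT direction the whole table held 9 such genes, and these were 3 light chain and 6 heavy chain V segments with no gene of another kind. In the dKO direction it held 104, of which 4 were light chain V segments, 2 were heavy chain V segments and 98 were other genes. More broadly, the CPM of the groups did not overlap for 21 members, 9 above and 12 below in dKO, or 31.3%, beside 14.8% of all genes with at least 5 counts (7.74% above and 7.09% below).

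A further 6 segments were called only when no filter was used, and these are named here after their values were seen. Igkv17-127 had 22, 4 and 47 counts in dKO and 0, 2 and 2 counts in WT libraries (log2 fold change 3.05 ± 0.56, edgeR adjusted p = 1.79e-05). Its near copy Igkv17-121 was at 0.576, 2.18 and 0.914 CPM in dKO and 3.71, 1.27 and 2.30 CPM in WT, with overlap and no call (adjusted p = 0.245). Igkv14-126, the close relative of Igkv14-111, had 17, 6 and 42 counts in dKO and 0, 0 and 1 in WT, a ratio of 30.7 on scaled counts with an exact 95% counting interval of 5.33 to 1232 (edgeR adjusted p = 8.29e-07). Lower in dKO were Igkv4-80 (1, 0 and 10 counts in dKO; 36, 6 and 10 in WT; adjusted p = 1.30e-10) and Igkv9-120 (0, 5 and 0 counts; 20, 5 and 18 in WT; adjusted p = 2.09e-10). Igkv4-61 (log2 fold change -2.69 ± 0.57, adjusted p = 7.80e-04) and Igkv9-124 (-2.0 ± 0.54, adjusted p = 0.0295) were lower too. Of these 6, Igkv14-126 alone kept its call in each edgeR, DESeq2 and limma-voom alternative, with an adjusted p of up to 0.0461. Igkv17-127 was lost in DESeq2 (adjusted p = 0.0675) and limma-voom (adjusted p = 0.354). Igkv4-80 was lost in both tools and without WT 1 (adjusted p = 0.0539), Igkv9-120 in both tools, Igkv4-61 in limma-voom and without WT 3 (adjusted p = 0.199), and Igkv9-124 in 8 of 11 alternatives.

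Several sequence families held segments that moved in opposite directions. The Igkv6 family held the greatest share of light V counts in both groups, 36.1% ± 1.91 in dKO and 35.4% ± 1.76 in WT (SD, n = 3 each), although Igkv6-15 rose and Igkv6-32 and Igkv6-14 fell. The Igkv4 family of 17 members held 11.2% ± 0.973 in dKO and 10.2% ± 0.248 in WT, while Igkv4-63 and Igkv4-86 rose and Igkv4-80, Igkv4-61, Igkv4-53 and Igkv4-57 fell. Over all families there were 11 pairs of the same family called in opposite directions with no filter, from Igkv6-14 and Igkv6-15 at 92.2% identity to Igkv6-15 and Igkv6-32 at 81.6%. Family totals, which do not say that all members moved alike, did not overlap between the groups for Igkv10, with 11.3% ± 1.70 in dKO and 5.45% ± 1.57 in WT, and Igkv1 and Igkv17, with 5.68% and 3.02% in dKO against 3.57% and 1.59% in WT. Igkv12 (1.33% ± 0.571 in dKO and 4.13% ± 0.761 in WT), Igkv9 (0.666% ± 0.356 and 3.21% ± 0.120), Igkv8 (1.198% and 3.51%) and Igkv11 (0.652% and 1.73%) were lower in every dKO library than in any WT library. All other families overlapped. On another measure, CPM, 14.8% of all genes with at least 5 counts did not overlap. Some totals largely repeat 1 segment. Igkv11 has 1 member, Igkv10-96 held 439 of the 490 counts of Igkv10, and Igkv17-127 held 77 of the 133 of Igkv17. Igkv8-19 gave 2.52% of the 3.51% of Igkv8 in WT.

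**Figure D3:**
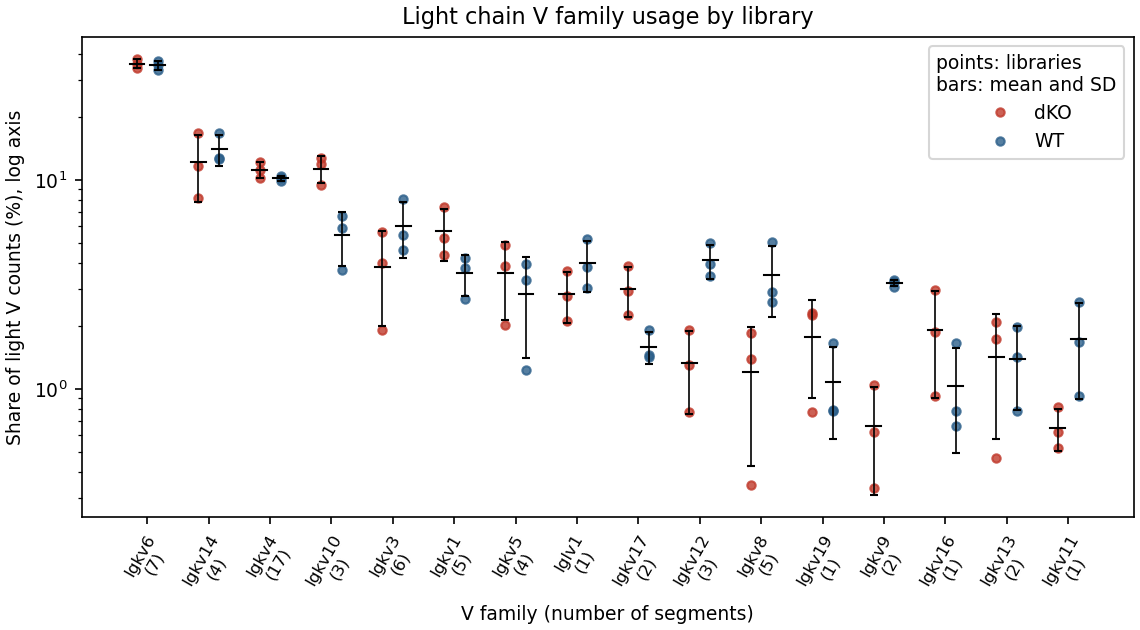
Share of light V counts per V family in percent on a log axis (families across, with the number of segments below each name; dKO left of WT). Points are libraries and bars give the mean and SD. Igkv6 leads in both groups at 36.1% in dKO and 35.4% in WT, Igkv10 is higher in dKO, and Igkv12, Igkv8 and Igkv9 are lower in dKO.

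Position along the kappa locus was compared as well, because V segments near the J cluster and far from it can be used unequally. The kappa members spanned chr6:67609713-70704177, from 19.0 kb to 3113 kb from Igkj1. The 32 members nearest Igkj1, up to 1222 kb from it, gave 49.2%, 50.8% and 55.0% of kappa V counts in dKO and 59.4%, 59.4% and 59.4% in WT libraries. The dKO values were all lower (means 51.7% ± 3.02 and 59.4% ± 0.0374, SD, n = 3 each; exact permutation p = 0.1, the smallest possible). The WT libraries held 893, 423 and 757 light V counts, so their small SD is not the precision of a single share. With no low-count filter, 1 of these 32 segments was called higher and 9 lower in dKO, and of the 32 farther segments 5 were called higher and 6 lower. The plot along the locus gives the shares by position, and this split was chosen after the data had been seen.

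**Figure D4:**
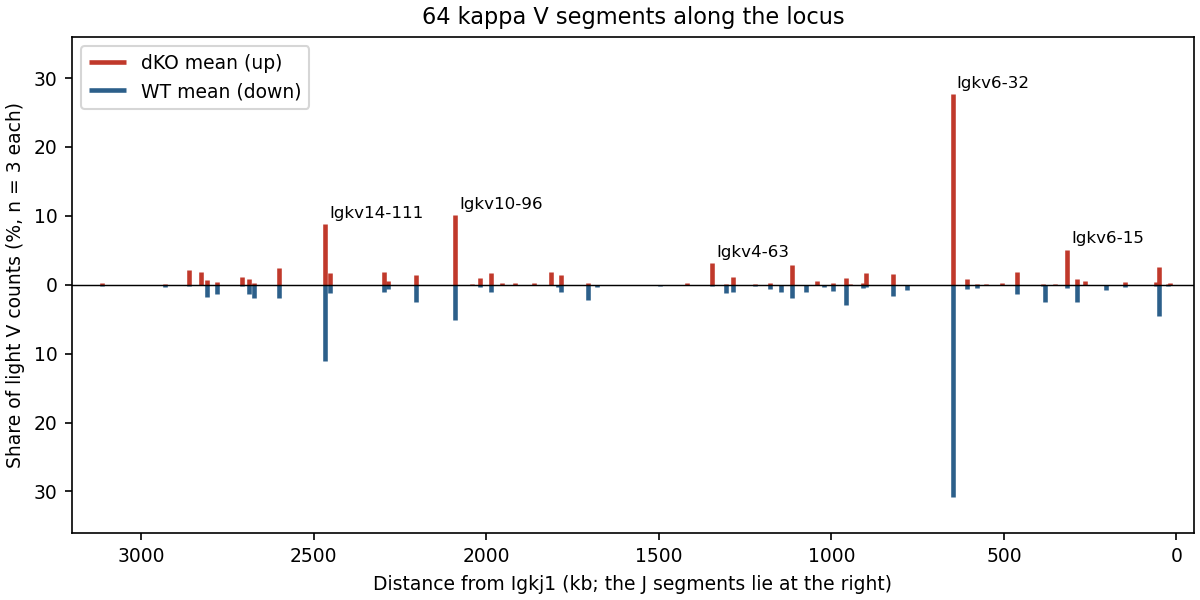
Mean share of light V counts of each kappa segment in percent (vertical axis, dKO drawn upward and WT downward, n = 3 each) against its distance from Igkj1 in kb (horizontal axis). Igkv6-32 is the tallest line in both directions, and used segments are spread along the whole locus.

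How evenly usage was spread over segments did not pass a test either. The effective number of segments, the inverse of the summed squared shares, was 11.0, 8.07 and 8.73 in dKO and 7.92, 8.39 and 8.24 in WT libraries (means 9.27 ± 1.54 and 8.18 ± 0.240, SD; exact permutation p = 0.3). Without Igkv6-32 the numbers were 15.2, 14.6 and 21.1 in dKO and 15.8, 18.4 and 19.0 in WT, and the sign of the difference turned (-0.784, exact permutation p = 0.8). Between 45 and 56 segments were seen per dKO library and between 42 and 50 per WT library. Brought to the 423 light V counts of the shallowest library, the expected numbers were 43.8, 42.0 and 46.7 in dKO and 42.6, 42.0 and 46.0 in WT (exact permutation p = 0.7).

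Which segments were used differed more between the groups than within them. The shared usage of a pair of libraries is the sum, over segments, of the smaller of their shares. It was 72.9% to 79.3% in the 3 dKO pairs and 81.3% to 84.1% in the 3 WT pairs, while the 9 pairs between groups had 62.3% to 70.6%, with no overlap. Chi-square per degree of freedom, which is about 1 when libraries differ by counting noise alone, was 3.38 to 4.09 in dKO pairs, 1.62 to 2.91 in WT pairs and 4.48 to 11.8 between groups. Heavy chain V segments, chosen by the same minimum, gave a like picture, with 81.6% to 85.1% in dKO pairs, 78.2% to 84.1% in WT pairs and 58.7% to 67.1% between groups, and chi-square per degree of freedom of 2.22 to 2.46 in dKO pairs, 1.69 to 2.496 in WT pairs and 5.31 to 12.5 between groups. Protein-coding genes shared 91.0% to 92.5% in dKO pairs, 89.8% to 90.5% in WT pairs and 88.7% to 90.8% between groups, which overlapped. Their chi-square per degree of freedom was 1.15 to 1.42 in dKO pairs, 1.11 to 1.203 in WT pairs and 1.33 to 2.07 between groups. By this measure light V segments varied more within a group than protein-coding genes did, which edgeR p-values and SEs of single segments can understate.

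**Figure D5:**
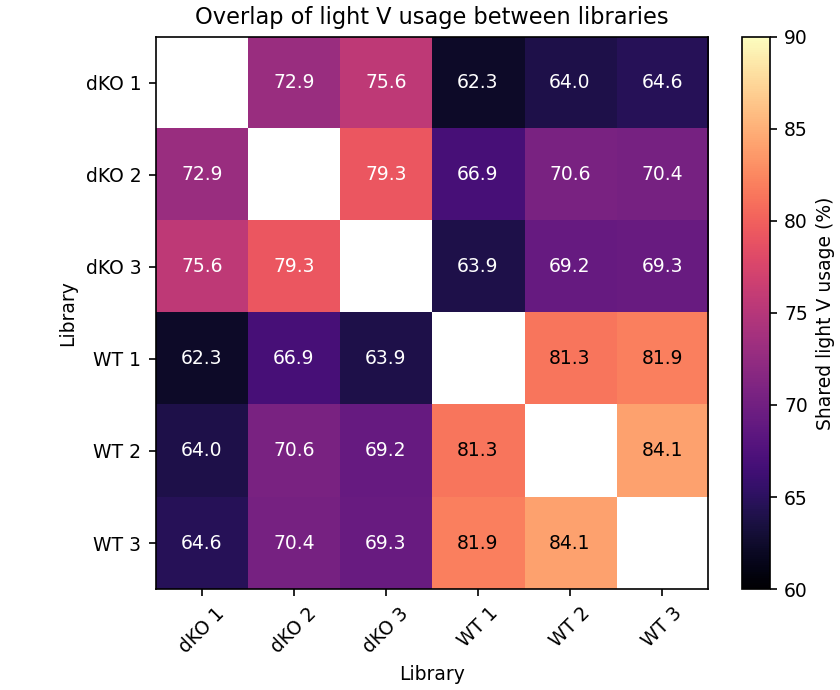
Shared light V usage in percent for every pair of libraries (dKO 1 to 3, then WT 1 to 3, along both axes; colour and number give the same value). The 9 pairs between the groups run from 62.3% to 70.6%, below the 72.9% to 84.1% of pairs within a group.

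Markers of the cells that make antibodies were present, and those tested were not called different. Of 15 plasma cell markers, all had counts and 8 were tested, with none called by edgeR, DESeq2 or limma-voom, 2 at an unadjusted edgeR p under 0.05, and a median log2 fold change of -0.13. They held 0.0972% to 0.105% of counts outside the ribosomal RNA gene in dKO and 0.103% to 0.118% in WT libraries. That was more than the 14 RGC markers held (means 0.0360% in dKO and 0.0277% in WT). The lists hold different genes, so these shares do not compare cell numbers. Of the untested plasma cell markers, Tnfrsf17 had 1 count in dKO 1 and none elsewhere. Mzb1 had 3, 2 and 4 counts in dKO and 1, 1 and 3 in WT libraries, and Sdc1 had 8, 6 and 25 against 8, 3 and 4. Jchain and Xbp1, a transcription factor of secretory cells, were the most abundant plasma cell markers. Slamf7, a surface receptor of plasma cells and other leukocytes, had a log2 fold change of -0.76 ± 0.27 (edgeR adjusted p = 0.167). Of 15 B cell markers 14 had counts and 2 were tested, neither called by the 3 tools nor at an unadjusted p under 0.05: Cd22, an inhibitory receptor of B cells (log2 fold change 0.62 ± 0.32, adjusted p = 0.416), and Ralgps2 (-0.14 ± 0.15, adjusted p = 0.769). They held 0.0241% ± 0.00263 in dKO and 0.0225% ± 0.00155 in WT libraries (SD, n = 3 each). Of the untested B cell markers Ms4a1, which encodes a B cell surface protein, had 5, 4 and 23 counts in dKO and 1, 1 and 1 in WT libraries, or 1.14 ± 0.310 CPM against 0.263 ± 0.0497 CPM without overlap. Ms4a1 is named after its values were seen, and 14.8% of all genes with at least 5 counts did not overlap. Spib, Fcrla and Blk had lower means in dKO (1.17, 0.953 and 0.382 CPM against 1.71, 1.14 and 0.503 CPM). Ebf1 and Cd79b had higher ones (2.39 and 1.74 CPM against 1.33 and 1.36 CPM). Pax5, the B cell identity factor, had no count in dKO and 1 in WT, and Fcer2a was at 0 throughout.

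Genes of the machinery that assembles V segments held few counts. Of 9 genes for V(D)J recombination and class switching 5 had counts and none was tested, with 0.00157% of counts in dKO and 0.00108% in WT libraries, and Rag2, Vpreb1, Vpreb2 and Igll1 were at 0. Of the 15 light chain constant, J and joining-chain genes 11 had counts, 3 were tested and 2 fell (Igkc and Iglc1). Of 12 T and NK cell markers 9 were tested and 1 fell (Gzma, a cytotoxic granule protease, log2 fold change -1.01 ± 0.28, edgeR adjusted p = 0.0369). That call was lost in 7 of 12 alternatives, among them DESeq2 (adjusted p = 0.401) and the fits without WT 1 (0.177), WT 2 (0.139), dKO 2 (0.1002) or dKO 3 (0.168). Red blood cell markers held at most 0.000441% of counts in dKO and were at 0 in WT libraries.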

How the data were processed

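RNA of sorted mouse retinal cells was sequenced from 6 libraries. The authors deposited raw counts per gene, one table for the series, per the file headers. The submitters' processing notes name the build GRCm38 and the tools DESeq2 1.22.2 and STAR 2.7.0d, while the counting tool is not given in the sources used here. Library totals ran from 4569880 to 6146226 counts.

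Counts of the whole table were fitted in edgeR 4.0.16 (R 4.3.3) with the quasi-likelihood F test, a group term, TMM scaling and filterByExpr (minimum count 10, minimum total 15). P-values were Benjamini-Hochberg adjusted over all 8444 genes tested, and a gene was called at an adjusted p under 0.05. The SE is the log2 fold change over the square root of F. For single values per library, exact permutation tests (two-sided) were run. The step was tested on simulated data with 200 changed genes and the same dispersion for every gene. That run did not check segments that vary more between libraries. The fit with no low-count filter was read for all members because 53 were not tested. Alternatives were other scalings, DESeq2 1.42.0, limma-voom 3.58.1, a replicate block and each library left out.

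Segments named are those tested, the 10 most used, the 3 most used outside the filter, and those with at least 10 counts in a single group, besides others said to be named after their values were seen. The 67 IDs matched transcripts of GENCODE M21, whose coding parts gave the sequences. Members, lists and comparisons were chosen with earlier results of these data known. Intervals and floors cover counting error only.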

Additional observations from a re-analysis of the deposited data

How the results depend on the processing

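Direction and call of the segments were recomputed under each alternative. Of 167 values for the tested segments 134 kept both, 17 lost the call, 6 gained it and 10 turned sign, all of the last in segments that were never called. Of 21 called segments 9 kept their call in every alternative with a value: Igkv6-15, Igkv4-63, Igkv12-46, Igkv6-14, Igkv14-126, Igkv4-86, Igkv8-19, Igkv4-53 and Igkv4-57. Over the edgeR, DESeq2 and limma-voom alternatives some came near the threshold. The highest adjusted p was 0.0461 for Igkv14-126, 0.0386 for Igkv12-46 and 0.0335 for Igkv8-19.

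The number of segments called higher in dKO was 2, against 6 with no low-count filter and 2 to 6 with a library left out. The number called lower was 7, against 16 with no filter, 2 in DESeq2 and 3 to 10 with a library left out, the 3 coming without WT 1. In the fit with no filter the 6 called higher became 3 in limma-voom and 5 to 7 with a library left out, and the 16 called lower became 6 in DESeq2, 3 in limma-voom and 10 to 14 with a library left out, the 10 coming without WT 1. The cause was not tested.

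The light V share (difference -0.0354) turned sign with all library counts (0.00980) or immunoglobulin counts (0.333) as denominator, and with a library left out ran from -0.0531 to -0.0248. With a library left out the lambda share difference ran from -1.02 to -0.0710, the effective number of segments from 0.220 to 1.69 (-0.784 without Igkv6-32, an alternative added after seeing the data), and the share of the 32 nearest kappa segments from -9.38 to -6.46. No pseudogene was a member, so that share was 0 throughout. Sign changes were seen for Igkv1-117 (0.021 with no filter, 0.039 without dKO 1, 0.063 without dKO 2, 0.23 without WT 3; lowest -0.28 with a library left out), for Igkv4-55 (0.080 in DESeq2, 0.078 with the replicate block, 0.39 without dKO 3, 0.077 without WT 1; lowest -0.27) and for Igkv6-23 (0.031 in limma-voom, 0.67 without WT 1; lowest -0.35).

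Libraries with the same replicate number deviated together weakly (r = 0.027, 0.013 and 0.030 across genes), so the numbers were not taken to pair them, although each library correlated best with its own number. The replicate block gave 2 higher and 7 lower calls, and with no filter 6 and 14. Depth limits the rare segments: 41 members held under 50 counts, and the shallowest library had 423 light V counts.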
